A study of Mus musculus with 6 samples.

Results

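The Reg genes encode small secreted proteins built around a C-type lectin fold. Their 7 mouse members (Reg1, Reg2, Reg3a, Reg3b, Reg3d, Reg3g and Reg4) were taken by symbol from the 55367 genes counted in each library, and all 7 were present. RNA was sequenced in 6 libraries of mouse pancreatic acinar cells, each made from 300 GFP-positive cells sorted by flow cytometry and amplified with 12 preamplification cycles in a variant of Smart-seq2, a full-length cDNA method. All 6 libraries form 1 group of untreated mice whose genotype reads Pdx1-Cre; Klf5-mCherry-CreERT2, so the labels give no contrast and no wild-type control. Pdx1-Cre acts in the early pancreatic epithelium, from which islet, duct and acinar cells all derive, so it is not specific to acinar cells. The genotype as written names no GFP reporter, and neither the age of the mice nor whether the libraries came from separate animals is given. The p-values below therefore measure only the spread between these libraries, which may be technical.

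Reg proteins are known from pancreatic juice, inflamed pancreas and gut. Reg1, also called pancreatic stone protein or lithostathine, is made by healthy acinar cells, whereas Reg3b was first described as a pancreatitis-associated protein. Reg3b and Reg3g are also antibacterial lectins of the intestinal epithelium, and signalling through gp130-type or IL-22 receptors and STAT3 is a known route to their transcription. EXTL3 has been described as a receptor for Reg proteins. Reg4 is best known from enteroendocrine and goblet cells of the gut.

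Total counts ran from 4670819 to 7072270 per library, of which ribosomal RNA genes took 38.2% to 60.9%. A number in the deposited names parts replicates 1 to 3 (called set A here) from replicates 4 to 6 (set B). What it stands for is not given, so the sets are a possible batch and not a study group. The mean share of ribosomal RNA was 42.3% for set A and 60.3% for set B. Levels are given in TPM, the usual transcript share scaled for length, computed here from counts, exon lengths and a total that includes ribosomal RNA. Each count was also set against a background, which is the mean density of counts per Mb across 1489 receptor genes of smell and pheromones, multiplied by the gene's span. Replicate 5 stood apart, with 327 receptor counts per Mb against 26.5 to 109 in the others. All 13 acinar markers had a mean of at least 1 TPM, and their sum ran from 145291 to 458291 TPM. The 12 islet markers summed to 10.2 to 45.9 TPM in replicates 1, 2, 3 and 5, to 1004 in replicate 4 and to 2230 in replicate 6. The 8 duct genes summed to 51.6 to 174 TPM, above the islet markers in replicates 1, 2, 3 and 5 and below them in replicates 4 and 6. Sums of the other marker lists were 2.51 to 14.7 TPM for 7 leukocyte genes and 1.06 to 13.5 for 5 mesenchyme genes. They were 0.298 to 6.29 TPM for 3 endothelial genes and 1.98 to 16.6 for 5 goblet and enteroendocrine genes. In such bulk libraries, fewer cells of a type and less RNA per cell cannot be told apart.

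Of the 7 genes, 6 lie in 1 cluster on chromosome 6 in GRCm38 (mm10), which spans 98216 bp and holds no other annotated gene. In the order of the chromosome these are Reg3b (78370657 to 78373466), Reg3d (78375874 to 78378865), Reg3a (78380709 to 78383827), Reg2 (78395623 to 78408106), Reg1 (78422711 to 78428667) and Reg3g (78466269 to 78468872). Reg3d and Reg3g are on the minus strand and the other 4 on the plus strand. Reg4 lies alone on chromosome 3 (98222156 to 98236748, plus strand). None of the 7 overlaps another gene.

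Upstream sequences are shown for the 4 most abundant members, to set the shared and the differing letters of neighbouring genes beside their levels. All 7 members matched the RefSeq promoter table (GRCm38.p6), and the searched window was the 250 bases before the RefSeq start, on the strand of the gene. The RefSeq starts of Reg1 and Reg2 differ from the starts of the counted intervals given above. The windows of these 2 genes therefore lie inside the counted genes, and the Reg3b window overlaps its own counted interval. Each line gives the longest stretch of that window outside every annotated GENCODE exon. Capitals mark whole matches, on either strand, to CACCTG (an E-box of the kind bound by the acinar factor PTF1), TTTCCC (the TC-box core of PTF1 sites), TATAAA, TTCNNNGAA (the palindrome of STAT factors) and CANNTGNNNNNNTTCCC (an E-box and TTCCC at fixed spacing), with N left in lower case unless another match covers it.
Reg1, chr6:78425733-78425929, plus strand: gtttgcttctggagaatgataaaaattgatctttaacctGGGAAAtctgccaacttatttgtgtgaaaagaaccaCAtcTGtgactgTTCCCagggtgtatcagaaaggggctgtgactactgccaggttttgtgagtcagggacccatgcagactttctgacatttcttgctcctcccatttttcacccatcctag
Reg2, chr6:78404905-78405154, plus strand: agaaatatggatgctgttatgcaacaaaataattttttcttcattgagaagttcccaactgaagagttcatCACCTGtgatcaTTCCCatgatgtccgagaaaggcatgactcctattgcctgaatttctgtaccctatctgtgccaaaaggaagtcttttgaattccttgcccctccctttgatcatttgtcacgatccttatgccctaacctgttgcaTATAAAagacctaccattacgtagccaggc
Reg3d, chr6:78378866-78379115, minus strand: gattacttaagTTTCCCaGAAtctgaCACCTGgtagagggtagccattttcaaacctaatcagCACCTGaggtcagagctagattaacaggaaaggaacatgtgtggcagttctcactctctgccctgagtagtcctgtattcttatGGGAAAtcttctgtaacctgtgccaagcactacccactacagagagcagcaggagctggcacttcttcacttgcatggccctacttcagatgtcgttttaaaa
Reg3b, chr6:78370707-78370860, plus strand: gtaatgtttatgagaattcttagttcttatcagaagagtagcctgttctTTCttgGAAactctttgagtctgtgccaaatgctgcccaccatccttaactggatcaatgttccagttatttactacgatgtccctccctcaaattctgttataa

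Reg1 and Reg2 carried the spaced motif 4 bases apart in position. CANNTGNNNNNNTTCCC, which was put together after the Reg1 and Reg2 sequences had been seen, began 175 bases before the start of Reg1 and 179 bases before that of Reg2. Its spacing was read from both sequences, so its match in these genes was fixed in advance and its share carries no test. The motif was found in 97 of 32851 promoters (0.295%) of the same length, and in no other member. TATAAA lay at 30 to 25 bases before both starts, in the part of the Reg1 window not printed, and was also found in Reg3b and Reg3g (12.4% of all promoters). CACCTG, itself a case of CANNTG, was found in Reg2, Reg3a, Reg3b, Reg3d and Reg4 (17.2% of all promoters) and not in Reg1. TTTCCC was found in Reg1, Reg3b, Reg3d and Reg3g (22.0% of all promoters). The printed Reg3b stretch covers only 178 to 25 bases before the start. Its CACCTG and TTTCCC matches lie outside that stretch and its TATAAA match is cut, so none of these is marked. TTCNNNGAA was found only in Reg3b, at 129 to 121 bases before the start, and in Reg3d, at 238 to 230, where it overlaps a TTTCCC match (7.02% of all promoters). CANNTG alone was in all 7 members and in 66.2% of promoters. These matches describe letters in a window and not bound sites.

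**Figure D1:**
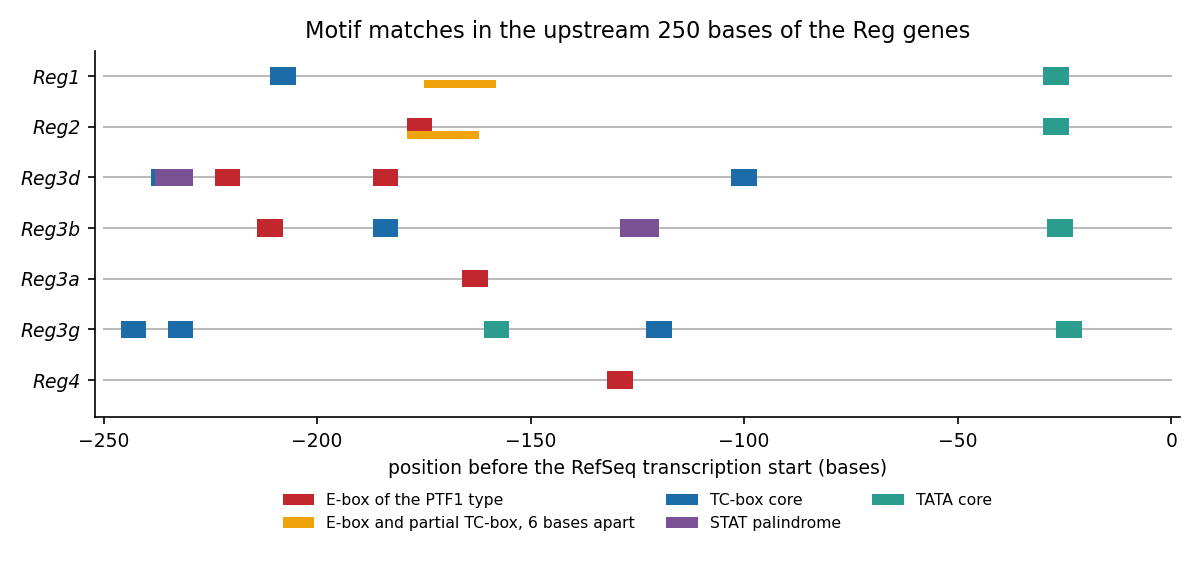
Positions of the motif matches in the 250 bases before the RefSeq start of each Reg gene, in bases before the start (x axis) and 1 row a gene. The spaced motif lies 175 to 159 bases before Reg1 and 179 to 163 bases before Reg2, and TATAAA lies 30 to 25 bases before both.

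Reg1 and Reg2 are also the closest pair in coding sequence, with 82.5% of 498 aligned bases identical, so whether their reads can be told apart bears on both levels. Below is the most alike stretch of 90 bases in the coding sequences of GENCODE transcripts, counted from the A of the start codon, with the 10 bases that differ in capitals.
Reg1, coding bases 178 to 267: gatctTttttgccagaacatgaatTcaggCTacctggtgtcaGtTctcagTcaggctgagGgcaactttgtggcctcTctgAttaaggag
Reg2, coding bases 202 to 291: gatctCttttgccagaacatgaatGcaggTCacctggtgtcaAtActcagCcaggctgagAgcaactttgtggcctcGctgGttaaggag

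The longest run of letters common to the Reg1 and Reg2 transcripts was 19 bases. Over all 21 pairs of members the longest was 35 bases, between Reg3b and Reg3g, whose coding sequences were 76.4% identical. No stretch of 50 bases in the transcript searched for each member occurred in the transcript of another gene. The transcript used for these runs and stretches was the longest coding one for every member but Reg1. For Reg1 it had 769 bases, against 904 for its longest coding transcript, which was not searched. How reads with several alignments were counted is not given in the sources used here. The least alike pair was Reg2 and Reg3g, at 62.8%.

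Reg1 was by far the most abundant member. Its level was 21334, 22696 and 17683 TPM in replicates 1 to 3 and 16449, 11198 and 15188 TPM in replicates 4 to 6. Every library of set A lay above every library of set B, as for 5.91% of genes tested, with replicate 5 lowest. The mean was 17425 ± 4192 TPM (SD, n = 6), which ranked 9th of 21949 protein-coding genes and made up 97.0% of the family's summed mean TPM. In raw counts Reg1 gave 21728 to 85533 per library, so counting alone would give a coefficient of variation of 0.425%, against the 24.1% observed. Such counting errors cover counting only, since amplified reads without molecular tags are not independent molecules. The whole family took 1.81% ± 0.32 (SD, n = 6) of counts outside ribosomal RNA, from 1.24% in replicate 5 to 2.17% in replicate 2.

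Reg2, the paralog next to Reg1 and closest to it in sequence, had the second highest mean. Its level was 198, 238 and 97.0 TPM in replicates 1 to 3 and 420, 300 and 379 TPM in replicates 4 to 6. The sets stood in the opposite order from those of Reg1, with all of set B above all of set A, as for 33.3% of genes tested. Within each set the libraries ranked as they did for Reg1, replicates 2, 1 and 3 in set A and 4, 6 and 5 in set B. Reg3d and the trefoil gene Tff2, outside the family, had the same ranking, so it is not particular to this pair. The mean was 272 ± 119 TPM (SD, n = 6), rank 47, from 346 to 1355 counts per library.

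Reg3d, which lies between Reg3b and Reg3a on the opposite strand, followed at 266, 286 and 195 TPM in set A and 176, 98.3 and 161 TPM in set B. As for Reg1, set A lay above set B without overlap and replicate 5 was lowest. The mean was 197 ± 69.4 TPM (SD, n = 6), rank 55. Reg3b, a pancreatitis-associated member, was measured at 67.3, 75.1 and 43.2 TPM in set A and 62.6, 53.0 and 49.4 TPM in set B. Here the sets overlapped, and the lowest library was replicate 3. Its mean was 58.4 ± 12.0 TPM (SD, n = 6), rank 149, and its coefficient of variation of 20.5% was the lowest of the 7.

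Reg3a and Reg3g were scarce and varied most among the members above background. Reg3a was at 21.04, 10.6 and 6.47 TPM in replicates 1 to 3 and 20.4, 5.65 and 21.4 TPM in replicates 4 to 6. Its mean of 14.3 ± 7.51 TPM (SD, n = 6), rank 479, rests on 10 to 77 counts per library. Reg3g, the antibacterial lectin at the far end of the cluster, was at 5.12, 3.14 and 0.631 TPM in set A and 6.42, 2.65 and 5.28 TPM in set B, a mean of 3.87 ± 2.13 TPM (SD, n = 6) from 5 to 48 counts. Both genes were highest in replicates 1, 4 and 6 and lower in replicates 2, 3 and 5. The summed islet markers were 40.4, 1004 and 2230 TPM in replicates 1, 4 and 6 and 24.3, 10.2 and 45.9 TPM in replicates 2, 3 and 5. Their part in the Reg3a and Reg3g values was not tested. The observed coefficients of variation, 52.7% for Reg3a and 54.9% for Reg3g, compare with 15.4% and 18.7% from counting alone.

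Reg4, the gut member, was at the background. Its counts were 1, 0 and 0 in replicates 1 to 3 and 1, 3 and 1 in replicates 4 to 6, or 6 in all. The receptor background predicted 141% of that number over the same span, and 4.77 counts in replicate 5, where 3 were found. For the count of 0 in replicates 2 and 3 a fixed floor of 3 counts was set, a share of 0.540 and 0.471 CPM (counts scaled to the library total). The exact Poisson 95% interval for a count of 0 reached 3.69 counts. The other 6 members exceeded 3 times background in all 6 libraries, and over all libraries together background came to at most 0.885% of their counts. In replicate 5 alone it came to 10.2% of the Reg3a counts and 7.10% of the Reg3g counts.

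**Figure D2:**
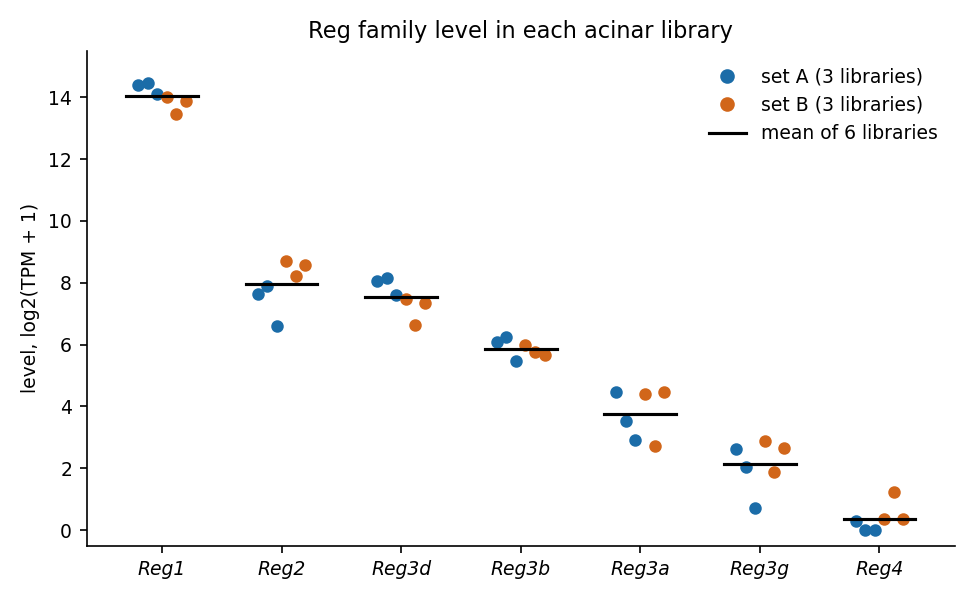
Level of each Reg gene as log2(TPM + 1) (y axis), 1 point a library, coloured by set, with a line at the mean of 6 libraries. Reg1 sits far above the rest, the sets of Reg2 are in the opposite order from those of Reg1 and Reg3d, and Reg4 lies near 0.

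Neighbours in this order were compared within each library on the log2(TPM + 1) scale with an exact two-sided sign-flip permutation test over 6 pairs of genes. The smallest p that 6 libraries allow is 0.031, or 0.038 after Benjamini-Hochberg adjustment over the 6 pairs. Reg1 exceeded Reg2 by 6.11 ± 0.96 (SD, n = 6), higher in 6 of 6 libraries, and the ratio of their mean TPM was 64.05. Reg3d exceeded Reg3b by 1.68 ± 0.46 and Reg3b exceeded Reg3a by 2.11 ± 0.75, each in 6 of 6 libraries and without overlap of the ranges. Reg3a exceeded Reg3g by 1.63 ± 0.45 and Reg3g exceeded Reg4 by 1.75 ± 0.86, also in 6 of 6 libraries, although the ranges over libraries overlapped. Because Reg4 is at background, the size of the last difference depends on the pseudocount, and it was 3.45 with 0.1 in place of 1. All 5 of these differences gave the smallest possible exact p of 0.031.

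Reg2 and Reg3d could not be ordered with exon lengths. Reg2 was lower than Reg3d by 0.42, 0.26 and 1.00 in replicates 1 to 3 on the log2(TPM + 1) scale and higher by 1.25, 1.6 and 1.23 in replicates 4 to 6. The mean difference was 0.40 ± 1.09 (SD, n = 6, exact sign-flip permutation p = 0.469). With these lengths, which of the 2 leads went with the set in 6 of 6 libraries. With gene span lengths, which count the long first intron of Reg2, Reg3d was higher in all 6, with a difference of -1.34 (exact permutation p = 0.031). The step from Reg3a to Reg3g depends on the length used: GENCODE joins a retained intron to Reg3g, for an exon length of 2114 bp against 771 bp for its coding transcript. With the coding transcript's length, a choice made after the data had been seen, Reg3g came to 9.54 ± 5.24 TPM and the difference to 0.44 (exact permutation p = 0.125). The same length for Reg3b gave 76.5 TPM in place of 58.4.

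**Figure D3:**
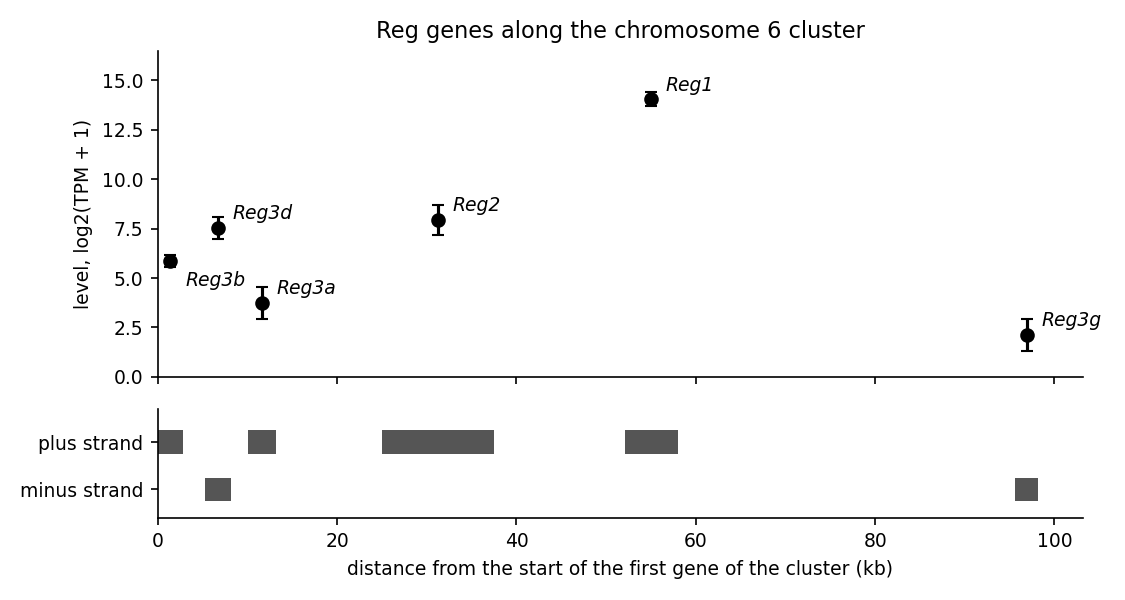
Mean level of the 6 clustered Reg genes as log2(TPM + 1), with the SD over 6 libraries (y axis), against distance along chromosome 6 from the start of the first gene in kb (x axis), with strand bars below. The most abundant gene, Reg1, and the least abundant of the 6, Reg3g, are neighbours separated by the widest gap.

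Level did not follow position in the cluster. Reg1, the highest, and Reg3g, the lowest of the 6, are neighbours with 37601 bp between them, the widest gap. The gap between Reg2 and Reg1 was 14604 bp and that between Reg3a and Reg2 11795 bp. Reg3b, Reg3d and Reg3a are packed with gaps of 2407 and 1843 bp, yet their mean TPM were 58.4, 197 and 14.3.

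The sets were compared with edgeR's quasi-likelihood test on the counts of 8723 genes with TMM scaling, and 0 of the 6 members tested passed at an adjusted p of 0.05, against 0.0115% of all genes tested. Reg4 was too low to be tested. The log2 difference, set B minus set A, was -0.99 ± 0.39 for Reg1 (SE, edgeR adjusted p = 0.144) and -1.23 ± 0.37 for Reg3d (adjusted p = 0.0943). These 2 of 6 had an unadjusted p under 0.05, against 25.9% of all genes tested. Reg2 had a log2 difference of 0.57 ± 0.39 (adjusted p = 0.390), Reg3b of -0.66 ± 0.31 (adjusted p = 0.215), Reg3a of -0.11 ± 0.61 (adjusted p = 0.932) and Reg3g of 0.24 ± 0.67 (adjusted p = 0.853). The median of the 6 was -0.38, beside -0.0040 over all genes tested. Of the 13 acinar markers, 9 were lower in set B by unadjusted p. Only 4 of the 12 islet markers entered the fit, and these were higher in set B. A gene can enter the fit through its counts in set B alone, so that direction says little. Of these 4, Pcsk2 exceeded 3 times background in 0 libraries, and Sst, not tested, had 1.81 TPM in set A and 0.14 in set B. The markers' part in the members' differences was not tested.

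Other settings moved single members past the threshold. DESeq2 called Reg1 (-1.11, adjusted p = 0.0219) and Reg3d (-1.34, adjusted p = 0.0142) lower in set B, 2 of the 6 members with an adjusted p, beside 1.67% of genes called lower and 5.89% called in either direction. Without replicate 5, edgeR called the same 2 genes, Reg1 at -0.74 (adjusted p = 0.0161) and Reg3d at -0.93 (adjusted p = 0.00508), beside 4.07% of genes called lower. Without replicate 4 it called Reg3d alone, at -1.58 (adjusted p = 0.0262), beside 5.72%. Scaling to the total without ribosomal RNA shifted the median gene tested by TMM to 0.75. On that scale Reg2 was higher in set B by 1.30 ± 0.31 (edgeR adjusted p = 0.0471), beside 21.1% of genes called higher, while Reg1 (-0.28) and Reg3d (-0.53) did not pass and Reg3a, at 0.58, and Reg3b, at 0.09, changed sign. In CPM outside ribosomal RNA, Reg2 was the 1 member of the 6 tested whose sets did not overlap, at 176 ± 67.0 (SD, n = 3) for set A and 422 ± 81.4 (SD, n = 3) for set B, beside 47.5% of genes. The sets of Reg4 did not overlap either, but at 0 to 1 count per library in set A and 1 to 3 in set B, each under 3 times background.

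**Figure D4:**
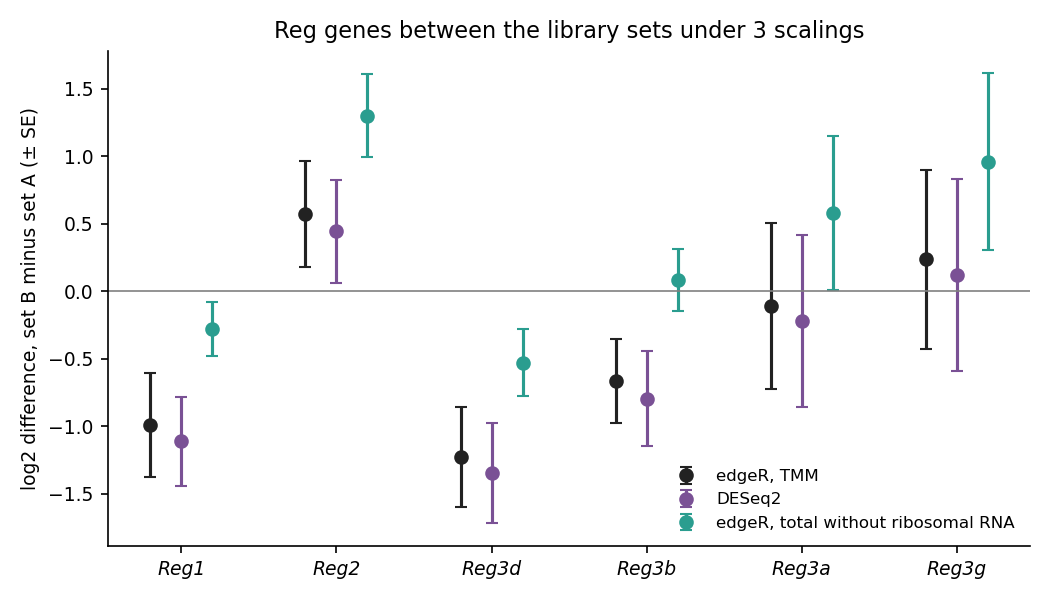
Log2 difference between set B and set A with its SE (y axis) for the 6 tested Reg genes, under edgeR with TMM, DESeq2 and edgeR on totals without ribosomal RNA. A change of scaling moves the 6 genes up or down together, so that Reg2 runs from 0.45 with DESeq2 to 1.30 and Reg3d from -1.34 to -0.53.

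Ratios between members need no library scaling, so the family was also described against itself. Reg2 gave 9.79, 11.1 and 5.78 counts per 1000 Reg1 counts in set A, against 26.9, 28.2 and 26.3 in set B. The sets did not overlap, and set B stood close together at 27.1 ± 1.00 (SD, n = 3) against 8.87 ± 2.76 in set A, a 3.17-fold ratio of geometric means with the smallest exact two-sided permutation p that 3 against 3 allows, 0.1 (0.171 after Benjamini-Hochberg adjustment over 12 ratios). Of all genes tested, 58.1% did not overlap in their ratio to Reg1, 56.8% being higher in set B, with a median log2 difference of 1.03, and 76.4% of genes had a smaller difference than the 1.66 of Reg2. Per 100 Reg3d counts, Reg2 gave 90.9, 102 and 60.6 counts in set A, against 291, 372 and 287 in set B. Again the sets did not overlap, as for 64.8% of genes in their ratio to Reg3d, 64.4% being higher in set B.

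The log2 ratio of Reg3d to Reg1 had an SD of 0.19 over the 6 libraries. The median SD against Reg1 was 0.36 over 341 protein-coding genes with a mean of at least 20 TPM. Reg3d gave 10.8, 10.9 and 9.53 per 1000 Reg1 counts in set A, against 9.23, 7.59 and 9.15 in set B, where replicate 5 was lowest. These sets did not overlap either, with set B lower, as for 1.26% of genes. The exact permutation p was 0.1, or 0.171 after Benjamini-Hochberg adjustment over 12 ratios. Reg3b per 1000 Reg1 counts overlapped between the sets, at 3.75 ± 0.58 (SD, n = 3) for set A and 4.96 ± 0.95 (SD, n = 3) for set B (exact permutation p = 0.2). Per 100 Reg3d counts Reg3b did not overlap, at 32.4 to 38.4 for set A and 44.9 to 78.8 for set B (exact permutation p = 0.1). The same held for 64.8% of genes in their ratio to Reg3d, 64.4% being higher in set B.

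**Figure D5:**
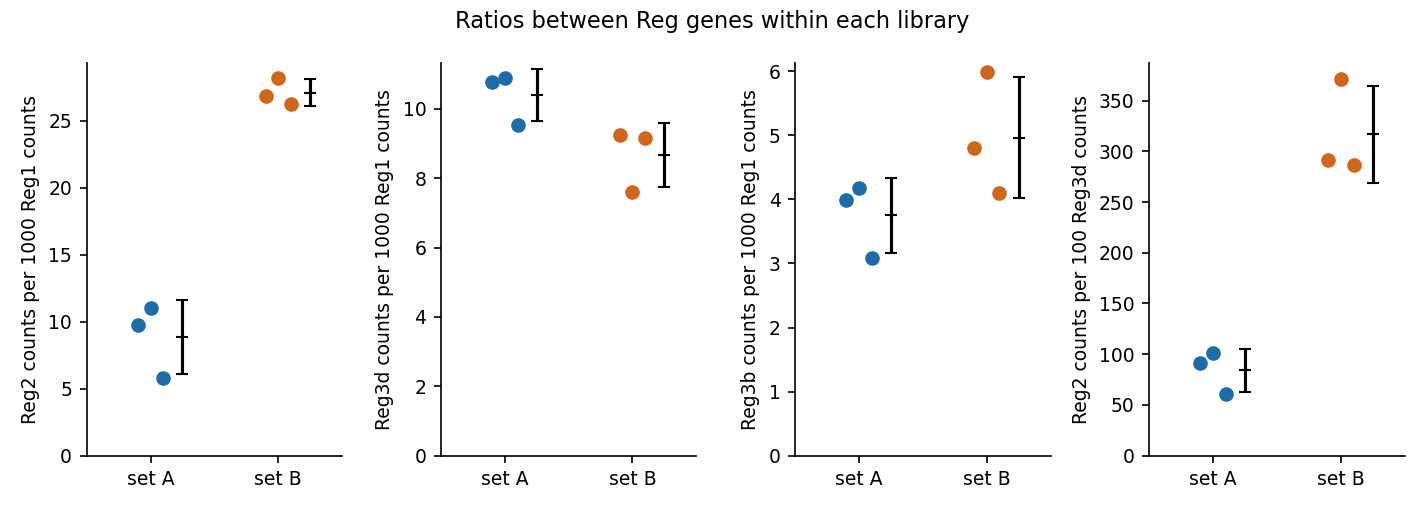
Ratios of counts between Reg genes within each library by set (x axis), 1 point a library, with the mean and SD of 3 libraries. Reg2 is higher relative to Reg1 and to Reg3d in every library of set B, while Reg3d relative to Reg1 lies slightly lower.

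Against 9 digestive enzyme genes summed, Reg1 lay higher in set B (exact permutation p = 0.1). It gave 3.74, 4.35 and 3.59 counts per 100 enzyme counts in set A, against 5.26, 5.77 and 5.24 in set B, without overlap, as for 80.7% of genes by this ratio, 80.4% being higher in set B. The enzymes themselves took 52.4%, 48.5% and 49.3% of counts outside ribosomal RNA in set A, against 35.1%, 20.6% and 31.6% in set B. Reg3d per 10000 enzyme counts overlapped between the sets, at 3.42 to 4.74 for set A and 4.38 to 4.86 in set B. Reg2 per 10000 enzyme counts lay at 2.07 to 4.81 for set A and 13.8 to 16.3 in set B, and Reg3b at 1.11 to 1.82 for set A and 2.15 to 3.45 for set B, both with no overlap.

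Genes most like each member were taken as those whose log2 ratio to it had the smallest SD over the 6 libraries, among 341 protein-coding genes with a mean of at least 20 TPM. For Reg1 these were Erp27 (0.087), Pla2g1b (0.096), Rplp0 (0.10), Prdx4 (0.10) and Cela3b (0.11), beside a median SD of 0.36 over all genes compared. Pla2g1b is the secreted pancreatic phospholipase, Cela3b an elastase and Erp27 a disulfide isomerase family member of the ER. For Reg3d they were Eef1a1 (0.086), Cela1 (0.15), Ppic (0.15), Rpl15 (0.15) and Rpl10 (0.16), beside a median of 0.50. For Reg3b they were Uqcrb (0.095), Snx3 (0.18), Cd24a (0.20), Mrps24 (0.21) and Rps7 (0.21), beside a median of 0.40. Reg2 had no such close companion: its nearest were Ly6e (0.41), Atox1 (0.42), Atp5e (0.48), Uqcr11 (0.49) and Rpl36 (0.49), beside a median of 0.81. In the list for Reg2, its neighbour Reg1 ranked 238th and Reg3d 277th, whereas in the list for Reg1 Reg3d ranked 40th and Reg2 313th. These SDs describe 6 libraries that differ in depth and set, and carry no test.

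The pathway that is known to act on Reg3 genes was measured at low levels. Of 18 STAT3 and gp130 signalling genes, 9 reached a mean of 1 TPM, led by the kinase Jak1 at 5.35 ± 1.24 TPM (SD, n = 6), the receptor Lifr at 5.12 ± 0.67 and the receptor Il11ra1 at 2.27 ± 0.96. Jak1 and Il11ra1 overlap other genes, and Lifr does not. Of the 18, 10 exceeded 3 times background in 5 of the 6 libraries and 0 in all 6. These counts are given without the share over all genes. The background was highest in replicate 5, at 327 receptor counts per Mb against 26.5 to 109 in the others. Tyk2, overlapped by another gene, had no counts. Of 11 tested between the sets, 0 passed edgeR's adjusted threshold, 2 had an unadjusted p under 0.05, and DESeq2 called 1. Among 5 Reg receptor and partner genes, Extl3 was highest at 10.2 ± 1.19 TPM (SD, n = 6) and lay between 8.82 and 12.1 TPM in every library. Pkm followed at 4.11 ± 1.35 TPM, Parp1 at 2.10 ± 0.56 and Nucks1 was lowest at 1.65 ± 0.54. None of these 5 passed edgeR's adjusted or unadjusted threshold, nor DESeq2's.

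Reg1 stood above every gene of the injury list and of the list of other lectins and granule proteins. Of 20 acute-phase and injury genes, 19 were present under the listed symbol and 12 reached 1 TPM. Tff2, a trefoil peptide, had 4035 ± 400.2 TPM (SD, n = 6), Nupr1, a stress-induced nuclear protein, 348 ± 194, and Clu, the chaperone clusterin, 128 ± 35.7, while the acute-phase genes Saa2 and Saa3 had no counts. Of 10 tested, 0 passed edgeR's adjusted threshold, 1 was higher and 1 lower by unadjusted p, and DESeq2 called Nupr1 alone (adjusted p = 5.7e-07). Its TPM were 526, 516 and 528 in set A and 218, 134 and 169 in set B, apart like those of Reg1 and Reg3d. Of 13 genes listed as other lectins and granule proteins, 8 reached 1 TPM. They were led by the zymogen granule proteins Zg16 at 8473 ± 3114 TPM and Gp2 at 1854 ± 482, then the galectin Lgals1 at 57.9 ± 9.94. Clec7a was lowest of the 13 at 0.205. Of 6 tested, 0 passed edgeR's adjusted threshold and 2 were lower by unadjusted p, and DESeq2 called 2.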

How the data were processed

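RNA was measured in 6 acinar libraries of 1 group. Per the submitters' processing notes, reads went through Trim Galore 0.6.4, FastQC, STAR 2.7.9a, SAMtools and featureCounts, with build mm10. What the authors deposited are raw counts, unnormalized, 1 per symbol. The counted intervals span whole genes with introns. Which annotation release and strand setting were used, and what was done with multiply aligned reads, is not given in the sources used here. The labels call the molecule genomic DNA, although the protocol describes RNA-seq.

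TPM was computed from these counts with GENCODE M21 exon lengths (55141 of 55367 symbols), and levels as log2(TPM + 1). Sets were compared with edgeR 4.0.16 (quasi-likelihood, TMM, filterByExpr, Benjamini-Hochberg over all genes), with DESeq2 1.42.0 as an alternative. In simulated counts of 8723 genes, edgeR recovered 41% of genes changed 4-fold and 1% of those changed 2-fold. In the comparison with all genes, ratios to Reg1, Reg3d and enzyme counts used an added 0.5 counts. The log2 ratios for the genes most like each member used it too, and the ratios printed per library did not. Promoters came from RefSeq and coding sequences from GENCODE, aligned with Biopython 1.88.

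Named were all 7 members, for each member of at least 20 TPM the 5 genes with the smallest SD of the ratio, and in each related list the 3 highest genes and the lowest. The members and lists were chosen with earlier results of these data known. Alternatives changed the length, total, background, filter, pseudocount, tool and libraries.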

Additional observations from a re-analysis of the deposited data

Results flagged for a closer look

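Reg4 in replicate 5 lay far from the other 5 libraries. Its level there was 1.37 TPM against 0 to 0.289 TPM elsewhere, and 1.64 CPM outside ribosomal RNA against 0 to 0.367. Both values rest on the same 3 counts, in the library with the highest receptor background, which predicted 4.77. Of 26 sets of values examined for such a gap, 2 had one, and chance gives about 1 in 20.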

How the results depend on the processing

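The labels number the libraries 1 to 6 in 1 group, but a second number in the deposited names runs from 1 to 3 in each set. Libraries with the same number did not deviate together from their set means (correlations of 0.187, -0.0706 and -0.128 over 8723 genes), and 1 of the 3 in each set correlated best with its own number, so the number was not taken as a pairing. With it as a replicate block, chosen after the data had been seen, 2 genes and 0 members were called, with Reg1 at -1.05 and Reg3d at -1.31. The summed level of 17970 TPM became 4239 TPM with gene span lengths and 30071 TPM with a total without ribosomal RNA. The 0 members called between the sets became 2 with DESeq2 and 1 with the total without ribosomal RNA, and ran from 0 to 2 with each library left out. The 1 gene called among all genes became 715 with DESeq2, 993 with no filter on low counts and 1834 with the total without ribosomal RNA, and ran from 0 to 2217 with each library left out. It was 2217 without replicate 4, 735 without replicate 5 and 0 without any other. The 1 gene called with all libraries was higher in set B, as were 71.6% of calls with DESeq2, 79.6% with no filter, 97.7% with the total without ribosomal RNA, 74.7% without replicate 4 and 49.8% without replicate 5. Signs turned for Reg2 against Reg3d with gene span lengths (-1.34), and between the sets for Reg3a (0.581) and Reg3b (0.0853) with the total without ribosomal RNA. With each library left out, the set difference ran from -0.51 to 0.47 for Reg3a and from -0.33 to 0.91 for Reg3g. With 5 libraries no exact p in the order can fall under 0.05, so those fits say nothing about its stability. The 6 members above 3 times background were 6 with each library left out and 5 above 10 times background, where Reg3a in replicate 5 stood at 9.80 times. The ratios of Reg2 to Reg1 and to Reg3d stayed higher in set B in 7 of 7 alternatives each. The cause of these changes was not tested. Depth limits Reg3a, Reg3g and Reg4, with 253, 171 and 6 counts in all.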
